A study of Mus musculus with 12 samples.

Results

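In the Ts1Cje mouse, a segment of chromosome 16 is present in 3 copies in place of the usual pair, as are the genes on it. The genes described here are 53 listed genes of that segment, from Sod1 at its proximal break to Zbtb21 near its distal end, without the interferon receptor cluster, the transcription factors Runx1, Erg and Ets2, and the kinase, calcineurin and chromatin genes of the same segment. The rule uses gene symbol and position and no value of these arrays. On the array, 49 of the 53 had a probe set assigned to a single gene symbol, 106 probe sets of 28898 in all. Scaf4, Paxbp1, Donson and Pigp had none. A further 7 probe sets carried several symbols, a listed gene among them, and were not used. A filter on dim probe sets left 37 of the 53 genes among the 12560 genes tested. Of these, 32 were above the filter level on all 12 arrays, and Mrap, Cldn14, Sh3bgr, Fam3b and Mx1 on fewer. Fam3b passed through the Trib1 lines and Sh3bgr through the cells without Trib1, the groups in which each was high, so for these no difference between those groups is given as a test.

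The study examined RNA of mouse cells on 12 arrays that fell into 4 groups of 3. The groups were acute myeloid leukaemia (AML) lines expressing Trib1 on the Ts1Cje background, AML lines expressing Trib1 on the C57BL/6 (B6) background, Ts1Cje hematopoietic cells without Trib1, and wild-type B6 hematopoietic cells without Trib1. They are called Ts1Cje + Trib1 lines, B6 + Trib1 lines, Ts1Cje cells and B6 cells here. Every group was grown with 10% serum and 5 ng/ml interleukin-3 and had no other treatment, and 100 ng of total RNA was labelled per array. The Trib1 protein is a pseudokinase that brings C/EBP alpha, a transcription factor of myeloid cells, to its degradation, and the labels mark the expressed form as wild type. Trib1 and leukaemia came together in the same 6 arrays and cannot be told apart. The labels give neither age nor sex, and they do not say whether the 3 arrays of a group came from separate mice, lines or cultures, so p-values cover no more than the spread among these arrays. Ts1Cje cells are also known to lack a few genes at the tip of chromosome 12, where the extra segment is attached.

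Values are probe set intensities on a linear scale, and each gene was read from its brightest probe set. The array medians lay between 30.5 and 32.0, the brightest value of an array between 8041 and 8685, and the 40th percentile used by the filter between 22.0 and 23.5. All 6 hematopoietic markers were measured, and their summed intensity was 13774 to 14793 in Ts1Cje + Trib1 lines, 14981 to 15064 in B6 + Trib1 lines, 15514 to 16152 in Ts1Cje cells and 15523 to 15829 in B6 cells. All 10 myeloid markers were measured too, with sums of 12352 to 12936 in Ts1Cje + Trib1 lines, 16783 to 17049 in B6 + Trib1 lines, 24286 to 24941 in Ts1Cje cells and 18995 to 19392 in B6 cells. The 7 neutrophil markers all passed the test in opposite directions, higher in Ts1Cje than in B6 cells and lower in Ts1Cje + Trib1 than in B6 + Trib1 lines. Their summed intensity was 14388 to 15096 in Ts1Cje + Trib1 lines, 23190 to 23623 in B6 + Trib1 lines, 37715 to 37968 in Ts1Cje cells and 25527 to 25662 in B6 cells. The myeloid and neutrophil sums were thus lowest in the Ts1Cje + Trib1 lines and highest in the Ts1Cje cells. The 6 monocyte and macrophage markers summed to 701 to 796 in Ts1Cje + Trib1 lines, 1822 to 1860.05 in B6 + Trib1 lines, 5911 to 6144 in Ts1Cje cells and 4256 to 4424 in B6 cells. The 5 mast cell and basophil markers summed to 20601 to 21266 in Ts1Cje + Trib1 lines, 17766 to 18073 in B6 + Trib1 lines, 4182 to 4434 in Ts1Cje cells and 2445 to 2504 in B6 cells. The 7 T and NK cell markers summed to 2688 to 2780.3 in Ts1Cje + Trib1 lines, 2096 to 2102 in B6 + Trib1 lines, 1102 to 1166 in Ts1Cje cells and 1302 to 1402 in B6 cells, and 5 of them were lower in Ts1Cje than in B6 cells. On each background, 5 of these markers were called lower and 2 higher in the Trib1 lines than in cells without Trib1. The sum and most of its markers thus went in opposite directions there. Of 5 stroma markers, 2 were measured, with sums of 68.0 to 77.6 in Ts1Cje + Trib1 lines, 74.8 to 80.4 in B6 + Trib1 lines, 166 to 209 in Ts1Cje cells and 348 to 385 in B6 cells. Among the lists given in this paragraph, every Trib1 array was above every array without Trib1 in the mast cell and basophil sum and in the T and NK cell sum. Among the same lists, the Trib1 arrays were all below those without Trib1 in the hematopoietic, myeloid, neutrophil, monocyte and macrophage, and stroma sums. Some marker lists are not reported here, so this is not the full set of lists that differed in this way. The part of such differences in the results below was not tested. In RNA of mixed cells, fewer cells of a type and less RNA per cell cannot be told apart.

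A gene present in 3 copies is, as background, often transcribed in proportion to its copies, although feedback and cell state can move single genes away from that proportion. The segment corresponds to part of human chromosome 21, the chromosome that is trisomic in Down syndrome, and children with Down syndrome have a raised risk of myeloid leukaemia. Its genes serve many functions. They range from enzymes of purine synthesis and mitochondrial proteins to endocytic scaffolds, ion channels of nerve cells and antiviral GTPases.

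The promoters of 4 genes are shown because Itsn1 and Cryzl1, which are direct neighbours, and Cbr1 and Cbr3, which are related, differed within each pair in the results below. Itsn1, an endocytic scaffold, and Cryzl1, a quinone oxidoreductase-like enzyme, are neighbours transcribed away from each other. Cbr1 and Cbr3 encode carbonyl reductases, cytosolic enzymes that reduce quinones and other carbonyl compounds with NADPH. The sequences are from RefSeq (GRCm38.p6), run from 250 bases before to 50 bases after the start the RefSeq window table uses, and are written 5′ to 3′ on the gene's strand with CCAAT and its complement ATTGG in capitals. For Itsn1 and Cryzl1 that start lies inside the gene as the gene table bounds it, and the bounds of the 2 genes lie nearer to each other than these starts. The windows are chr16:91729121-91729420 on the plus strand for Itsn1, chr16:91728753-91729052 on the minus strand for Cryzl1, chr16:93607587-93607886 on the plus strand for Cbr1 and chr16:93682969-93683268 on the plus strand for Cbr3.
Itsn1: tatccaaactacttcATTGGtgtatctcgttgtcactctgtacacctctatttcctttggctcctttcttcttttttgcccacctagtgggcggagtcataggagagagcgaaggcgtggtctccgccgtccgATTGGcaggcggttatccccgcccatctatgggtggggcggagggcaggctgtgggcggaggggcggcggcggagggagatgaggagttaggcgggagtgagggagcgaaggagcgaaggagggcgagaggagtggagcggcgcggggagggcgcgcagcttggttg
Cryzl1: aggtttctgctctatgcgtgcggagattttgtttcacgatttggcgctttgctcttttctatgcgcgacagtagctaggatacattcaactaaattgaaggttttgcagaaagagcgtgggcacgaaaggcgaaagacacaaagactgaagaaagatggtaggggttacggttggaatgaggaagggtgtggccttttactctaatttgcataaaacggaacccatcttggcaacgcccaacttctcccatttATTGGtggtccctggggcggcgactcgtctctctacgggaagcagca
Cbr1: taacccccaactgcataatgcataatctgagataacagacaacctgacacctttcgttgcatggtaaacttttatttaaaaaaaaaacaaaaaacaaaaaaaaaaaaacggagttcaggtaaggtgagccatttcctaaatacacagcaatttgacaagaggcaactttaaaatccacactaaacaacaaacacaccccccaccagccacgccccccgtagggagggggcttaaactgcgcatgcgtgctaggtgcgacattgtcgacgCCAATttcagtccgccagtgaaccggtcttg
Cbr3: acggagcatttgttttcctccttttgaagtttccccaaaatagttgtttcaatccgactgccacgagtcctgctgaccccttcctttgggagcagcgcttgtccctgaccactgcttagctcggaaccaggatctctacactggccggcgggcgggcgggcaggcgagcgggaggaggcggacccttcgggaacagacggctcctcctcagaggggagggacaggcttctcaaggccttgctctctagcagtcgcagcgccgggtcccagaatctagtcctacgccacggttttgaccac

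The letters CCAAT, searched on both strands, occurred in 2 places in the Itsn1 window, in 1 place each in those of Cryzl1 and Cbr1, and nowhere in that of Cbr3. The GC box letters GGGCGG occurred 5 times in the Itsn1 window, 2 times with overlap in that of Cbr3 and 1 time in that of Cryzl1, with no match in that of Cbr1. TTGCNNAA, letters found in C/EBP-type sites, occurred 2 times in the Cryzl1 window and in none of the other 3. Among all 32851 mouse promoter windows of this length, 37.4% held CCAAT, 35.7% held GGGCGG and 10.8% held TTGCNNAA. Windows were given for 41 of the 53 genes, and TTGCNNAA was found for 3 of them, Cldn14, Cryzl1 and Kcnj15. These matches describe the letters of the windows and are not measured binding sites.

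Of the 37 genes tested, 15 were higher with the extra copy both in the Trib1 lines and in cells without Trib1, where 2.42% of all genes were. In the Trib1 lines, 20 of the 37 genes were higher in Ts1Cje + Trib1 than in B6 + Trib1 and 1, Itsn1, was lower, where 11.9% of all genes tested were called higher and 9.63% lower. In cells without Trib1, 22 of the 37 were higher in Ts1Cje than in B6 and none was lower at an adjusted p under 0.05 with limma, where 23.3% of all genes were called higher and 29.3% lower. At an unadjusted p under 0.05 with limma, 26 were higher and still 0 lower in cells without Trib1, and 22 were higher and 2 lower in the Trib1 lines. The share of all genes at that unadjusted level was not counted, and the shares given above do not apply to it. The median log2 difference over the 37 was 0.21 in the Trib1 lines and 0.18 in cells without Trib1, against 0.00 and 0.01 over all genes tested. Over the 32 genes above the filter level on all arrays, 19 were higher and 1 lower in the Trib1 lines, with a median of 0.26, and 22 were higher and 0 lower in cells without Trib1, with a median of 0.21. Fam3b, kept through the group in which it was high, is in the counts of the 37 and not of the 32. All these differences are on the scale log2(intensity + 15), which draws those of dim genes towards 0. In the Trib1 lines, all 3 Ts1Cje + Trib1 values lay above all 3 B6 + Trib1 values for 22 genes and below them for 3, where this held for 19.6% and 16.8% of all genes. Without Trib1 the count was 25 above and 1 below, where it was 28% and 32.4% of all genes.

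**Figure D1:**
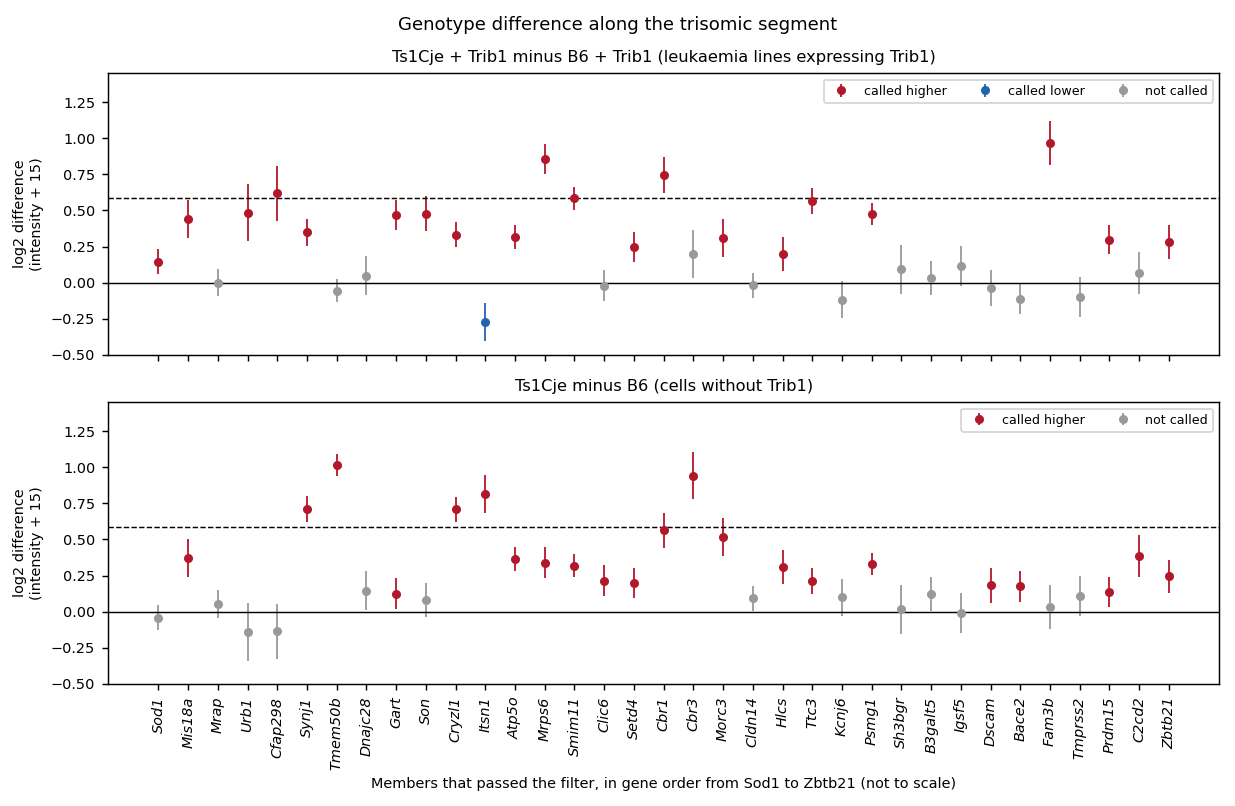
Genotype difference (vertical axis, log2 of intensity + 15, with its 95% interval) of the 35 tested genes with a position in the reference table, in gene order along the segment from Sod1 on the left to Zbtb21 on the right, for Trib1 lines (upper panel) and cells without Trib1 (lower panel). The dashed line marks the 3 to 2 copy ratio, 0.585 on the log2 scale, and Itsn1 is the gene below 0 that was called in the upper panel and among the highest in the lower one.

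The genes called higher in both settings were Mis18a, Synj1, Gart, Cryzl1, Atp5o, Mrps6, Smim11, Setd4, Cbr1, Morc3, Hlcs, Ttc3, Psmg1, Prdm15 and Zbtb21. Sod1, Urb1, Cfap298 and Son were higher in the Trib1 lines and not called in cells without Trib1. Fam3b is counted with them, but it was kept through the group in which it was high, so its call is not given as a test. Tmem50b, Clic6, Cbr3, Dscam, Bace2 and C2cd2 were higher in cells without Trib1 and not called in the Trib1 lines. Itsn1 was called in both, in opposite directions. Mrap, Dnajc28, Cldn14, Kcnj6, Sh3bgr, B3galt5, Igsf5, Mx1, Mx2 and Tmprss2 were called in neither.

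Brightness went with these calls. Among the 20 genes with a mean intensity of at least 100, 17 were higher and 1 lower in the Trib1 lines with a median log2 difference of 0.39, and 16 were higher and none lower in cells without Trib1 with a median of 0.34. Among the 17 dimmer genes, 3, with Fam3b included, were higher in the Trib1 lines and 6 in cells without Trib1, with medians of 0.03 and 0.12. Of all genes tested, 11.9% were higher and 9.63% lower in the Trib1 lines, and 23.3% and 29.3% in cells without Trib1. All genes were not split by brightness, so whether brightness goes with calls beyond these genes was not tested. Over the 20 bright genes, the ratio of mean intensities had a median of 1.32 between Ts1Cje + Trib1 and B6 + Trib1 lines and of 1.27 between Ts1Cje and B6 cells, beside a copy ratio of 1.5. In the Trib1 lines, the 95% interval of the fold lay under 1.5 for 13 of them, held 1.5 for Urb1, Cfap298, Son, Smim11 and Ttc3, and lay above it for Mrps6 and Cbr1. In cells without Trib1 it again lay under 1.5 for 13, held 1.5 for Cbr1 and Morc3, and lay above it for Synj1, Tmem50b, Cryzl1, Itsn1 and Cbr3.

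Sod1, which encodes the cytosolic superoxide dismutase, sits at the proximal break, and the copy on the extra segment is known to be disrupted in this mouse. It had intensities of 2878, 2959.7 and 2763 in the Ts1Cje + Trib1 lines, against 2569.6, 2552 and 2652 in the B6 + Trib1 lines. In cells without Trib1 it had 1959.8, 2092 and 2018 in Ts1Cje cells, against 2037, 2092 and 2120.3 in B6 cells. The groups overlapped in cells without Trib1 and did not in the Trib1 lines. The log2 difference was 0.14 (95% interval 0.06 to 0.23, adjusted p = 0.0184) in the Trib1 lines, a ratio of 1.11, and -0.04 (95% interval -0.13 to 0.04, adjusted p = 0.378) in cells without Trib1. Both intervals lay below the 0.585 of a 3 to 2 copy ratio. The call in the Trib1 lines was lost when any of 4 of their 6 arrays was left out, replicates 1 and 2 of each genotype, with adjusted p from 0.0566 to 0.0842.

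The genes just proximal of Sod1 are outside the extra segment. Tiam1, an exchange factor for the GTPase Rac, had 1396 ± 30.1 in Ts1Cje + Trib1 lines and 1349 ± 44.4 in B6 + Trib1 lines (SD, n = 3 each), with 723 ± 21.9 in Ts1Cje cells and 727 ± 4.91 in B6 cells. Neither genotype difference of Tiam1 was called, at 0.05 (95% interval -0.03 to 0.13, adjusted p = 0.408) and -0.01 (95% interval -0.09 to 0.07, adjusted p = 0.875). Bach1, a repressor of heme-responsive genes, was lower in Ts1Cje + Trib1 lines by the test, with a log2 difference of -0.26, and higher in Ts1Cje cells, with 0.24. Cct8, a chaperonin subunit, differed by -0.08 without a call in the Trib1 lines and was lower in Ts1Cje cells, by -0.17. Of 20 tested disomic genes on this side of the break, 5 were higher and 2 lower in the Trib1 lines, with a median log2 difference of 0.04, and 3 were higher and 10 lower in cells without Trib1, with a median of -0.13. The other 14 genes of the segment that were tested had 12 higher and none lower in the Trib1 lines, with a median of 0.37, and 11 higher and 2 lower in cells without Trib1, with a median of 0.40. The shares over all genes were 11.9% higher and 9.63% lower in the Trib1 lines, and 23.3% and 29.3% in cells without Trib1.

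Among the genes for RNA processing, nucleotide synthesis, the nucleus and chromosomes, 9 were tested, and all 9 were higher in Ts1Cje + Trib1 than in B6 + Trib1 lines, while 7 were higher in Ts1Cje than in B6 cells, where 11.9% and 23.3% of all genes were. Mis18a, a factor that loads the centromere histone, averaged 812 ± 14.7 in Ts1Cje + Trib1 lines and 597 ± 59.9 in B6 + Trib1 lines, with log2 differences of 0.44 there and 0.37 in cells without Trib1. Its probe set is marked by the maker as able to bind other transcripts, and Mis18a was not tested when such probe sets were left out. Gart, the trifunctional enzyme of purine synthesis, averaged 843 ± 42.3 and 605 ± 25.5 in the Ts1Cje + Trib1 and B6 + Trib1 lines, a log2 difference of 0.47 (SE 0.05, adjusted p = 1.23e-05). Its difference in cells without Trib1 was smaller and near the threshold, with averages of 699 ± 34.3 in Ts1Cje and 639 ± 13 in B6 cells and 0.13 (SE 0.05, adjusted p = 0.0461). Setd4, a SET-domain methyltransferase, Hlcs, which attaches biotin to carboxylases, and the zinc-finger factors Prdm15 and Zbtb21 were higher in both settings, with log2 differences from 0.20 to 0.30 in the Trib1 lines and from 0.14 to 0.31 in cells without Trib1.

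Morc3, an ATPase of nuclear bodies, had 1040.3, 1014 and 1028 in Ts1Cje + Trib1 lines, against 802, 792 and 886 in B6 + Trib1 lines. Without Trib1 it had 1382, 1194 and 1164 in Ts1Cje cells, against 853, 853 and 891 in B6 cells. The genotypes did not overlap in either setting, and the log2 differences were 0.31 (SE 0.06, adjusted p = 0.0023) with Trib1 and 0.51 (SE 0.06, adjusted p = 1.41e-05) without it.

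Son and Urb1 carried a genotype difference in the Trib1 lines that was not called in cells without Trib1. Son, a splicing factor of nuclear speckles, had 1859, 1823 and 1900.0 in Ts1Cje + Trib1 lines, against 1303, 1398 and 1294 in B6 + Trib1 lines. The values without Trib1 were 2121, 2107 and 1836 in Ts1Cje cells, against 1916, 1963 and 1838 in B6 cells. The genotypes were apart in the Trib1 lines, with 0.48 (SE 0.06, adjusted p = 2.99e-05), and overlapped in cells without Trib1, with 0.08 (SE 0.06, adjusted p = 0.224). Urb1, a factor of ribosome biogenesis known from yeast, had 146, 151 and 113 in Ts1Cje + Trib1 lines, against 102, 81.5 and 95.8 in B6 + Trib1 lines. Its values were 175, 155 and 164 in Ts1Cje cells, against 178, 192 and 178 in B6 cells. All 3 Ts1Cje values lay below all 3 B6 values without Trib1, without a call, at -0.14 (SE 0.09, adjusted p = 0.208), while the Trib1 lines gave 0.49 (SE 0.09, adjusted p = 0.00177). In both genes it was the B6 + Trib1 lines that held the lowest values of the 4 groups.

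Of 6 tested genes of mitochondria and carbonyl metabolism, 4 were higher in Ts1Cje + Trib1 than in B6 + Trib1 lines and 5 in Ts1Cje than in B6 cells, where 11.9% and 23.3% of all genes were, with none of the 6 lower. Atp5o, the stalk subunit of ATP synthase known for its oligomycin sensitivity, averaged 2999 ± 111 in Ts1Cje + Trib1 lines, 2400.1 ± 43 in B6 + Trib1 lines, 3357 ± 49.6 in Ts1Cje cells and 2608 ± 63.7 in B6 cells. Its log2 differences of 0.32 (SE 0.04, adjusted p = 4.1e-05) with Trib1 and 0.36 (SE 0.04, adjusted p = 5.1e-06) without it left an interaction of -0.04 that was not called. Dnajc28, a J-domain protein, was called in neither setting, with 0.05 and 0.15.

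Mrps6, a protein of the small mitochondrial ribosome subunit, had 224, 235 and 224 in Ts1Cje + Trib1 lines, against 111, 117 and 129 in B6 + Trib1 lines. Its values without Trib1 were 259.8, 268 and 252 in Ts1Cje cells, against 206, 201 and 199 in B6 cells. The extra copy went with a ratio of 1.91 in the Trib1 lines, above the copy ratio, and of 1.29 without Trib1, below it, with log2 differences of 0.86 (95% interval 0.75 to 0.96, adjusted p = 3.12e-08) and 0.34 (95% interval 0.24 to 0.44, adjusted p = 6.77e-05). Cryzl1 had 613, 614 and 652 in Ts1Cje + Trib1 lines, against 484, 489.9 and 509 in B6 + Trib1 lines. Its values were 673, 716 and 712 in Ts1Cje cells, against 418, 421 and 431 in B6 cells. Here the larger difference was without Trib1, at 0.71 (95% interval 0.62 to 0.79, adjusted p = 1.76e-08), against 0.33 (95% interval 0.25 to 0.42, adjusted p = 4.44e-05) in the Trib1 lines.

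The carbonyl reductases differed from each other between Trib1 lines and cells without Trib1. Cbr1 had 260.1, 289 and 289.8 in Ts1Cje + Trib1 lines, against 149, 177 and 157 in B6 + Trib1 lines. Among cells without Trib1 it had 291, 291 and 296 in Ts1Cje, against 199, 190.2 and 191 in B6. Among the 20 bright genes introduced above, it was the only one called higher in both settings whose interval in each reached or passed the copy ratio, with 0.75 (95% interval 0.62 to 0.87, adjusted p = 5.35e-07) with Trib1 and 0.56 (95% interval 0.44 to 0.69, adjusted p = 3.34e-06) without it.

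Cbr3 had 37, 36.5 and 47.3 in Ts1Cje + Trib1 lines, against 32.1, 32.6 and 34.2 in B6 + Trib1 lines, so that all 6 Trib1 arrays were dim. Without Trib1 it had 346, 307 and 354 in Ts1Cje cells, against 176, 153 and 174 in B6 cells. The ratio in cells without Trib1 was 2.00, with a log2 difference of 0.94 (95% interval 0.78 to 1.11, adjusted p = 4.65e-07), and the Trib1 lines gave 0.20 (95% interval 0.03 to 0.36, adjusted p = 0.0853), without a call. Its differences between Trib1 lines and cells without Trib1 were among the largest of the 37 genes, -2.67 (SE 0.08, adjusted p = 1.44e-12) on the Ts1Cje background and -1.93 (SE 0.08, adjusted p = 8.42e-11) on the B6 background. The Cbr3 window shown above, without CCAAT and with GGGCGG, and that of Cbr1, with CCAAT and without GGGCGG, thus belong to genes that differed in these arrays, and nothing measured here links the letters to the levels.

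**Figure D2:**
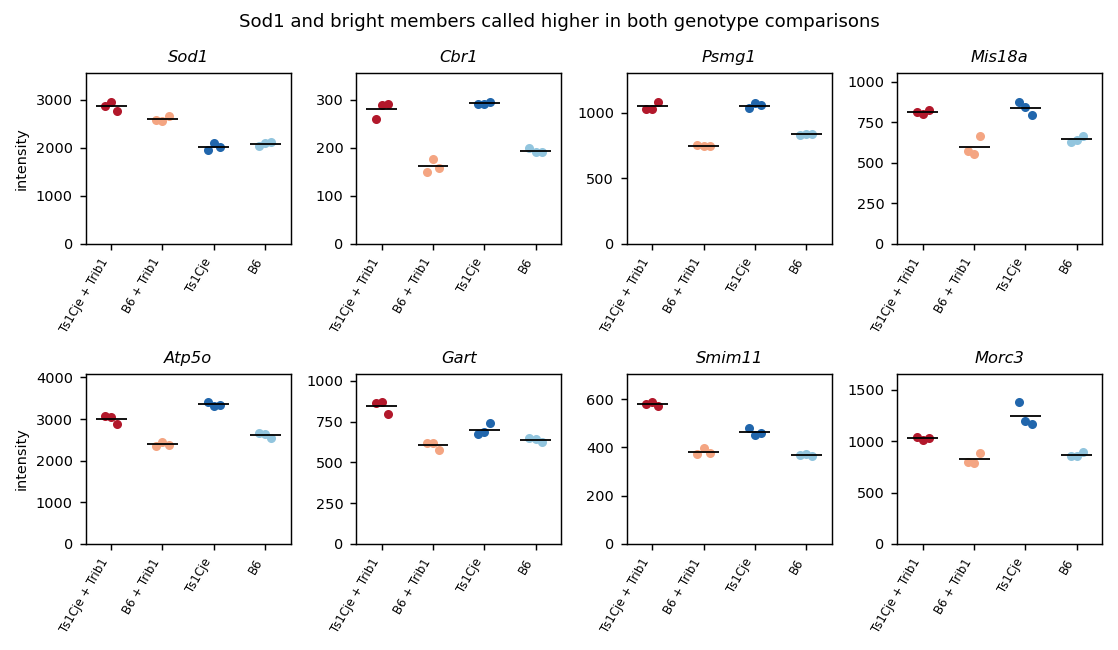
Intensity (vertical axis, linear from 0) in each of the 12 arrays for Sod1 and for 7 bright genes called higher with the extra copy in both settings, with the 4 groups along the horizontal axis and a bar at each group mean. Cbr1 stands at 260.1 to 289.8 in Ts1Cje + Trib1 lines and 149 to 177 in B6 + Trib1 lines, while Sod1 overlaps between Ts1Cje and B6 cells.

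Genes of protein assembly, ubiquitin transfer and membrane traffic included Itsn1 and Tmem50b, which had the largest interactions of the 37 genes. Of 6 tested, 3 were higher and 1 lower in Ts1Cje + Trib1 than in B6 + Trib1 lines, and all 6 were higher in Ts1Cje than in B6 cells, where 11.9%, 9.63% and 23.3% of all genes were so, with median log2 differences of 0.21 and 0.55. Psmg1, a chaperone of proteasome assembly, averaged 1047 ± 31.7 in Ts1Cje + Trib1 lines, 748 ± 2.28 in B6 + Trib1 lines, 1053 ± 19.98 in Ts1Cje cells and 834 ± 5.81 in B6 cells. Its log2 differences were 0.48 (SE 0.03, adjusted p = 3.41e-07) and 0.33 (SE 0.03, adjusted p = 4.63e-06). Ttc3, a ubiquitin ligase, had 763, 723 and 796 in Ts1Cje + Trib1 lines, against 506, 519 and 502 in B6 + Trib1 lines. Its values were 449.8, 479 and 469.8 in Ts1Cje cells, against 407, 394 and 398 in B6 cells. All groups were apart, with the highest values in the Ts1Cje + Trib1 lines, and the log2 difference was 0.56 (SE 0.04, adjusted p = 3.92e-07) with Trib1 and 0.21 (SE 0.04, adjusted p = 0.000785) without it.

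Synj1 encodes synaptojanin, a phosphoinositide phosphatase that strips the coat from endocytic vesicles. It had 773, 791 and 860.2 in Ts1Cje + Trib1 lines, against 624, 629.6 and 639 in B6 + Trib1 lines. Without Trib1 it had 1063, 1128 and 1124 in Ts1Cje cells, against 667, 670.3 and 670.4 in B6 cells. The Ts1Cje cells stood well above the other 3 groups, with a log2 difference to B6 cells of 0.71 (95% interval 0.62 to 0.80, adjusted p = 3.14e-08), and the Trib1 lines differed by 0.35 (95% interval 0.26 to 0.44, adjusted p = 5.45e-05).

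Itsn1 encodes intersectin, a scaffold that gathers endocytic proteins, synaptojanin among them. It had 73.3, 65.6 and 55.9 in Ts1Cje + Trib1 lines, against 79.8, 79.7 and 83.7 in B6 + Trib1 lines. In cells without Trib1 it had 504, 509 and 514 in Ts1Cje, against 289, 278 and 281 in B6. The 2 genotype differences had opposite signs and both were called, -0.27 (95% interval -0.40 to -0.14, adjusted p = 0.00633) with Trib1 and 0.82 (95% interval 0.68 to 0.95, adjusted p = 2.52e-07) without it. Ratios of mean intensities were 0.801 in the Trib1 lines and 1.80 in cells without Trib1. The difference between Ts1Cje + Trib1 lines and Ts1Cje cells, -2.72 (SE 0.06, adjusted p = 1.47e-13), was the largest of the 37 genes on this scale, while by the ratio of mean intensities Cbr3 differed more, at 0.12 against 0.128 for Itsn1. When the probe sets of a gene were averaged, the call of Itsn1 in the Trib1 lines was lost, and its log2 difference was 0.48 in cells without Trib1, with an interaction of -0.58. Cryzl1, its divergent neighbour, differed by -0.16 between Ts1Cje + Trib1 lines and Ts1Cje cells.

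Tmem50b, a membrane protein of the secretory pathway, had 510.4, 509 and 519 in Ts1Cje + Trib1 lines, against 549.9, 527 and 523 in B6 + Trib1 lines. Among cells without Trib1 it had 1593, 1571 and 1630.2 in Ts1Cje, against 777, 804 and 767 in B6. The ratio without Trib1 was 2.04, with 1.02 (95% interval 0.94 to 1.09, adjusted p = 2.83e-10), and the Trib1 lines gave -0.05 (95% interval -0.13 to 0.02, adjusted p = 0.334), with every Ts1Cje + Trib1 value below every B6 + Trib1 value and no call. C2cd2, a C2-domain protein, had 61.5, 64.4 and 64.9 in Ts1Cje + Trib1 lines, against 54.7, 69 and 57.1 in B6 + Trib1 lines. Its values were 92.6, 90.5 and 102 in Ts1Cje cells, against 63.9, 70.3 and 73.4 in B6 cells. The genotypes overlapped with Trib1, at 0.07 (SE 0.07, adjusted p = 0.545), and were apart without it, at 0.39 (SE 0.07, adjusted p = 0.000373). Itsn1, Tmem50b, Cbr3, Synj1 and C2cd2 were among 19 of the 37 genes with their highest mean in the Ts1Cje cells, Atp5o, Mis18a, Morc3, Psmg1, Mrps6 and Cbr1 being others. The summed neutrophil markers given above were highest there too, and their part in this was not tested.

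**Figure D3:**
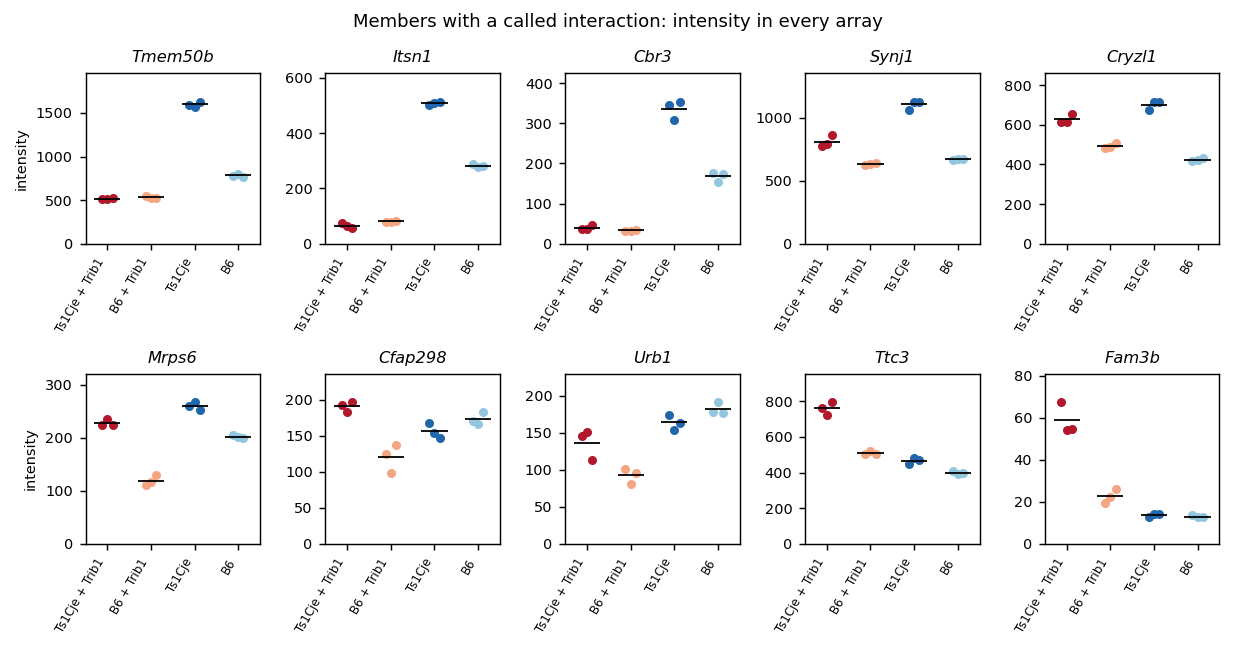
Intensity (vertical axis, linear from 0) in each of the 12 arrays for Fam3b and for genes whose genotype difference changed with Trib1 by the interaction test, with the 4 groups along the horizontal axis and a bar at each group mean. The upper row holds genes highest in Ts1Cje cells, such as Tmem50b at 1571 to 1630.2, and the lower row genes with a wider gap between the Trib1 lines, such as Mrps6 at 224 to 235 in Ts1Cje + Trib1 lines and 111 to 129 in B6 + Trib1 lines, while Fam3b, shown for its values, is at background without Trib1.

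Channels, transporters and their accessory proteins were mostly dim. Of the 4 tested, Smim11, a small membrane protein, was the bright one, and it had 579, 588 and 571 in Ts1Cje + Trib1 lines, against 372, 396 and 377 in B6 + Trib1 lines. The values without Trib1 were 480.2, 452 and 460.0 in Ts1Cje cells, against 368, 373 and 365 in B6 cells. It was higher in both settings, at 0.58 (95% interval 0.50 to 0.67, adjusted p = 1.04e-07) and 0.32 (95% interval 0.24 to 0.40, adjusted p = 1.33e-05), and the interval held the copy ratio in the Trib1 lines and lay below it in cells without Trib1. Clic6, of the chloride intracellular channel family, was higher in Ts1Cje than in B6 cells by 0.22, at intensities of 42.7 and 34.6. Kcnj6, a potassium channel of nerve cells, and Mrap, a partner of melanocortin receptors, were not called in either setting. Slc5a3, Kcne1, Kcne2 and Kcnj15 did not pass the filter.

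Neural and developmental genes were close to background. Olig1, Olig2, Sim2, Pcp4, Hunk and Eva1c missed the filter, and the mean of their brightest probe sets over the 12 arrays ran from 13.4 to 20.1. Dscam, an adhesion molecule of neurons, passed at group means between 38.6 and 47.8 and was called higher in Ts1Cje than in B6 cells, by 0.18. A list of 5 neural markers had 4 measured, with a summed intensity of 143 to 153 in Ts1Cje + Trib1 lines, 142 to 159 in B6 + Trib1 lines, 149.95 to 159 in Ts1Cje cells and 137 to 147 in B6 cells. All 4 had a positive log2 difference between Ts1Cje and B6 cells, with a median of 0.09, and 1 was called higher. Whether a shift of values near background enters the calls of dim genes such as Dscam was not tested. Over all 12 genes that missed the filter, single array values ranged from 8.48 to 23.9. Their genotype difference was tested only in the alternative with no filter and is not given gene by gene.

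Of 8 tested genes of epithelia, cilia and secretion, Cfap298 was higher in Ts1Cje + Trib1 than in B6 + Trib1 lines, and Bace2, a secretase-like protease, was higher in Ts1Cje than in B6 cells, by 0.18, where 11.9% and 23.3% of all genes were. Fam3b, a cytokine-like secreted protein of pancreatic islets, had 67.6, 54.2 and 54.5 in Ts1Cje + Trib1 lines, against 19.7, 22.5 and 25.9 in B6 + Trib1 lines. In cells without Trib1 it had 12.7, 14.2 and 14.1 in Ts1Cje, against 13.7, 12.7 and 12.7 in B6, all under the 40th percentile of their arrays. It was above that level on the 3 Ts1Cje + Trib1 arrays and on 1 B6 + Trib1 array, so it was kept through the group in which it was high, and its values are given with no test.

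Cfap298, a factor for building motile cilia, had 192, 183 and 197 in Ts1Cje + Trib1 lines, against 125, 97.9 and 138 in B6 + Trib1 lines. Its values without Trib1 were 168, 153 and 147 in Ts1Cje cells, against 170.2, 166 and 182 in B6 cells. The genotypes were apart with Trib1, at 0.62 (SE 0.09, adjusted p = 0.000188), and overlapped without it, at -0.14 (SE 0.09, adjusted p = 0.202). Sh3bgr, an SH3-domain-binding glutamate-rich protein of muscle, had 21, 18.5 and 24.7 in Ts1Cje + Trib1 lines, against 19.2, 19.6 and 18.5 in B6 + Trib1 lines. Its values were 52.2, 41.7 and 52.1 in Ts1Cje cells, against 46.1, 43.6 and 54 in B6 cells. All 6 values in the Trib1 lines lay below all 6 values without Trib1. It was above the filter level on 1 array of the Trib1 lines and all 6 of the others, so this is given with no test. Its genotype differences were 0.09 with Trib1 and 0.02 without it, neither called. The junction proteins Cldn14 and Igsf5, the galactosyltransferase B3galt5 and the serine protease Tmprss2 were dim and not called between genotypes, and Ripk4 and Lca5l missed the filter.

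Mx1 and Mx2 encode GTPases that are induced by interferon and restrict viruses, and B6 mice, like most laboratory strains, carry defective forms. Mx1 had 41.8, 40.04 and 33 in Ts1Cje + Trib1 lines, against 31.8, 26.6 and 34.5 in B6 + Trib1 lines. Without Trib1 it had 29.7, 25 and 23.7 in Ts1Cje cells, against 22.1, 21.1 and 21.7 in B6 cells. Mx2 had 36.2, 36.2 and 42.9 in Ts1Cje + Trib1 lines, against 44.1, 40.4 and 35.2 in B6 + Trib1 lines, and 28.7, 34.7 and 35.8 in Ts1Cje cells, against 30.7, 28.8 and 29.3 in B6 cells. All these values were dim. Neither gene was called between genotypes, at 0.21 (95% interval 0.05 to 0.38, adjusted p = 0.0613) and 0.17 (95% interval 0.00 to 0.33, adjusted p = 0.0792) for Mx1, and -0.04 (95% interval -0.19 to 0.11, adjusted p = 0.762) and 0.11 (95% interval -0.05 to 0.26, adjusted p = 0.217) for Mx2.

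Interferon response genes outside the segment moved with genotype in the Trib1 lines, where 13 of 20 tested were higher in Ts1Cje + Trib1 and 1 lower, with a median log2 difference of 0.34. In cells without Trib1, 6 were higher and 7 lower, with a median of -0.09. Beside these counts, 11.9% of all genes were higher and 9.63% lower in the Trib1 lines, and 23.3% and 29.3% in cells without Trib1. Usp18, a protease that removes ISG15, averaged 945 ± 22 in Ts1Cje + Trib1 lines and 531 ± 20.7 in B6 + Trib1 lines, with 184 ± 19 in Ts1Cje and 145 ± 3.81 in B6 cells. Rtp4, Ifi27l2a and Ddx58, also of this list, were higher in the Trib1 lines with the extra copy by 0.70, 0.75 and 0.29. The differences of Mx1 and Mx2 in that comparison were 0.21 and -0.04.

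Set against cells without Trib1, the leukaemia lines had some of the same genes higher and some lower. On the Ts1Cje background, 8 of the 37 were higher and 15 lower in the Trib1 lines, where 34.1% of all genes were called higher and 26.8% lower, 60.9% in all. On the B6 background, 12 were higher and 14 lower, where 34.1% and 31.1% of all genes were called so, 65.2% in all. Over the 32 genes above the filter level on all arrays, the counts were 6 higher and 14 lower on the Ts1Cje background and 10 higher and 13 lower on the B6 background. Among the 20 bright genes, 6 were higher and 10 lower on the Ts1Cje background, and 3 higher and 11 lower on the B6 background. The counts of the 37 were thus near the background on the B6 side and somewhat toward lower values on the Ts1Cje side. These comparisons share arrays with the genotype comparisons, so the same array values enter both.

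Among the 32 genes above the filter level on all arrays, those with the largest log2 differences from cells without Trib1 were Itsn1, Cbr3, Tmem50b and Ttc3 on the Ts1Cje background, at -2.72, -2.67, -1.61 and 0.69. On the B6 background they were Cbr3, Itsn1, Urb1, Mrps6 and Tmem50b, at -1.93, -1.63, -0.88, -0.69 and -0.54. Adjusted p-values from limma for these genes ran from 1.19e-13 to 2.13e-06. Sod1 was higher in the Trib1 lines on both backgrounds, by 0.50 and 0.31. Mx1, which was below the filter level in B6 cells, differed by 0.37 and 0.32, and Mx2 was higher on the B6 background, by 0.30.

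The difference between the 2 genotype differences was tested as an interaction. It was positive, with more of a genotype difference in the Trib1 lines, for 10 of the 37 genes, and negative for 10, where 28.4% and 20.2% of all genes were called so, 48.6% in all. Over the 32 genes above the filter level on all arrays, 9 were positive and 10 negative. The share called was thus near that of all genes. The most negative were Itsn1 at -1.09 (SE 0.09, adjusted p = 4.98e-07), Tmem50b at -1.07 (SE 0.05, adjusted p = 2.71e-09) and Cbr3 at -0.74 (SE 0.11, adjusted p = 9.7e-05). The most positive among the 32 were Cfap298 at 0.75 (SE 0.12, adjusted p = 0.000282), Urb1 at 0.63 (SE 0.13, adjusted p = 0.00156) and Mrps6 at 0.52 (SE 0.07, adjusted p = 4.66e-05). Of the 20 bright genes, 9 had a positive and 5 a negative interaction.

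**Figure D4:**
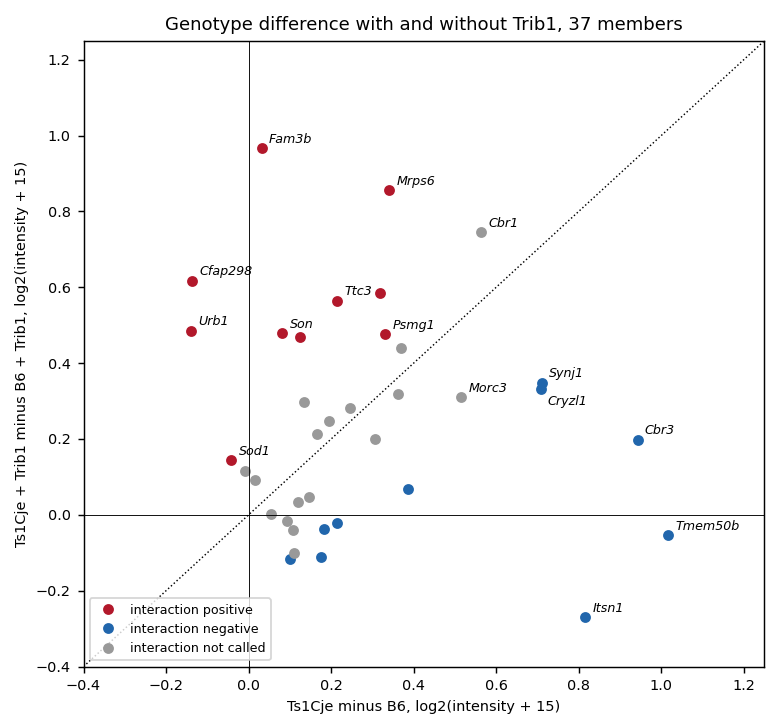
Genotype difference of each of the 37 tested genes in cells without Trib1 (horizontal axis) and in Trib1 lines (vertical axis), both as log2 of intensity + 15, with colour for the call of the interaction. The dotted line marks equal differences, with Itsn1, Tmem50b and Cbr3 far below it and Fam3b, Cfap298 and Urb1 above it.

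For 15 of the 37 genes several probe sets passed the filter, and they did not always agree. Synj1, Cryzl1 and Morc3 had 3 each, all called higher with the extra copy in both settings when every probe set was fitted on its own. Itsn1 had 5, all called higher in Ts1Cje than in B6 cells, from 0.16 to 0.89, and in the Trib1 lines 2 were called lower, with a range from -0.27 to 0.06. Those 2 were the brightest, and the probe set that represents Itsn1 is marked by its maker as able to bind several transcripts. Son had 6 probe sets, 4 called higher in the Trib1 lines and 2 in cells without Trib1, and Ttc3 had 5, of which 4 were called higher in the Trib1 lines and 1 in cells without Trib1. Cfap298 had 4, with 2 called higher in the Trib1 lines and a range there from -0.05 to 0.62. Its interaction was called positive for 2 probe sets and negative for 1, at -0.25, and that of Son for 1 of 6, with a range from -0.04 to 0.40. The probe set that represents Cfap298 is marked as able to bind other transcripts. Its interaction was 0.75, and that of the next brightest was 0.47. Gart had 4 called higher in the Trib1 lines and 2 in cells without Trib1, its brightest among those not called there when every probe set was fitted on its own. Urb1 had 2, a bright one with the difference given above and one near background at 0.01 in the Trib1 lines. Bace2 had 2 as well. The brighter was called higher only in cells without Trib1, at 0.18, and the dimmer only in the Trib1 lines, at 0.20. Which transcripts the probe sets read was not settled here.

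**Figure D5:**
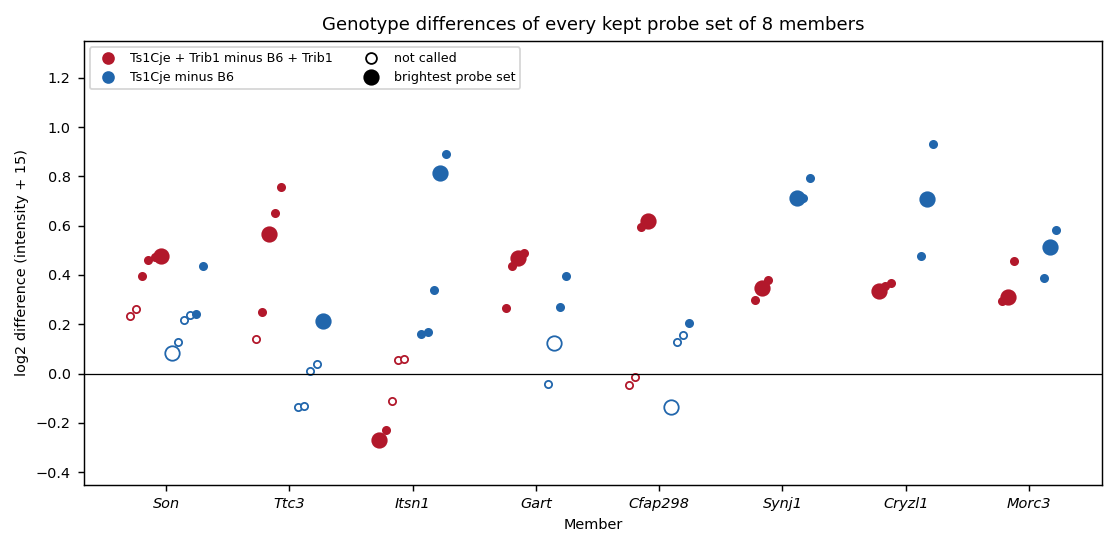
Genotype difference (vertical axis, log2 of intensity + 15) of every kept probe set of 8 genes, with Trib1 lines in red on the left and cells without Trib1 in blue on the right of each gene, spread sideways in order of value; large points mark the brightest probe set and open points those not called. Synj1, Cryzl1 and Morc3 have every point filled and above 0, while the red points of Itsn1 lie between -0.27 and 0.06 and its blue points between 0.16 and 0.89.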

How the data were processed

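RNA of 12 samples was hybridised to a mouse 3′ array. The deposited values are linear intensities per probe set; per the submitters' processing notes they were made with MAS5, whose version and scaling are not given in the sources used here, nor is a genome build. The array carries no mismatch probes, which MAS5 in its usual form subtracts. Of 45141 probe sets, 28898 had 1 gene symbol, 551 several, 15588 none, and 104 were controls. Symbols were updated through Entrez identifiers to the GRCm38.p6 gene table (28689 matched). Probe sets above their array's 40th percentile on at least 3 arrays were kept, and a gene was read from its brightest.

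The deposited intensities were analysed as log2(intensity + 15) with limma 3.58.1 (R 4.3.3), with a mean per group over all 12 arrays, two-sided, Benjamini-Hochberg adjusted over 12560 genes and called at an adjusted p under 0.05. The fit was tested on simulated data. Arrays give no read depth; their number limits the precision.

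The genes and lists were chosen with earlier results of these data known. Values in every array are given for genes among the 8 largest differences of a genotype comparison, or the 6 largest of a Trib1 comparison or the interaction, and for Sod1, Mx1 and Mx2. From other lists, the 4 brightest interferon genes and the 3 nearest proximal genes are named, and 1 marker list is not reported here. Alternatives covered scaling, offset, filter, probe set choice, moderation, samples in the fit, replicate numbers as a block and leaving out each array.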

Additional observations from a re-analysis of the deposited data

Results flagged for a closer look

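For 20 of the 37 genes tested, the genotype difference in the Trib1 lines differed from that in cells without Trib1 by the interaction test in limma at an adjusted p under 0.05, where 48.6% of all genes had a called interaction, 28.4% positive and 20.2% negative. Negative interactions, with less of a genotype difference in the Trib1 lines, were -1.09 for Itsn1, -1.07 for Tmem50b, -0.74 for Cbr3, -0.37 for Cryzl1, -0.36 for Synj1 and -0.32 for C2cd2 on the log2 scale. The other 4 were in dim genes, -0.29 for Bace2, -0.24 for Clic6, -0.22 for Dscam and -0.22 for Kcnj6, whose group means lay between 32 and 47.8 in the first 3. Positive interactions were 0.75 for Cfap298, 0.63 for Urb1, 0.52 for Mrps6, 0.40 for Son, 0.35 for Ttc3, 0.34 for Gart, 0.27 for Smim11, 0.19 for Sod1 and 0.15 for Psmg1. Fam3b had 0.93, but it passed the filter through the Trib1 lines and was at background without Trib1, so its value is a description. For Cfap298 a dimmer probe set had a called interaction of opposite sign, and for Son 1 of 6 probe sets had a called interaction. A dimmer probe set of Bace2 had an interaction of 0.10, without a call. Among these 20, Itsn1 was the one with called genotype differences of opposite sign. All 7 neutrophil markers had a negative interaction as well, with a median of -2.10, and their part in these values was not tested.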

How the results depend on the processing

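The counts of genes called in each comparison stayed within 1.5 times the reported ones under the alternatives run, with 3 exceptions. Averaging a gene's probe sets left 0 genes lower in Ts1Cje + Trib1 than in B6 + Trib1 lines, where the brightest probe set gave 1, Itsn1. The stricter filter, which tested 26 of the genes, left 6 higher in B6 + Trib1 lines than in B6 cells and 6 with a negative interaction. Leaving out each array in turn gave 18 to 21 genes higher in Ts1Cje + Trib1 lines with 1 lower throughout, 19 to 24 higher in Ts1Cje cells with 0 lower, 7 to 9 higher and 13 to 15 lower in Ts1Cje + Trib1 lines than in Ts1Cje cells, 11 to 12 higher and 12 to 14 lower in B6 + Trib1 lines than in B6 cells, and 9 to 11 positive and 8 to 11 negative interactions.

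The replicate block gave 21 higher and 1 lower in Ts1Cje + Trib1 lines, 21 higher and 0 lower in Ts1Cje cells, 8 and 15 against Ts1Cje cells, 12 and 14 against B6 cells, and 10 positive and 9 negative interactions. Replicate numbers did not pair the arrays: same-numbered deviations correlated from -0.45 to 0.35 over 18 pairs, and 3 of 12 arrays resembled their own number best. For 40 results, the genes named by rank in the comparison in which they ranked, with Sod1, Mx1 and Mx2 in both genotype comparisons, 900 of 910 alternative values kept direction and call and 0 reversed; the lower call of Itsn1 in the Trib1 lines is not among these. In 4, Sod1 lost its call in the Trib1 lines when 1 array was left out. In 6, a genotype difference of Mx1 or Mx2 gained a call, with adjusted p from 0.0166 to 0.0456. The cause was not tested. The median difference of the genes moved to 0.30 in Trib1 lines and 0.24 in cells without Trib1 with an offset of 1, to 0.31 and 0.25 with a floor, to 0.33 and 0.28 with the stricter filter and to 0.07 and 0.12 with no filter. With 3 arrays a group and signals near background, differences of dim genes are poorly resolved.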
